A study of Mus musculus with 6 samples.

Results

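Matrix metalloproteases (MMPs), the ADAM and ADAMTS proteases and the tissue inhibitors of metalloproteases (TIMPs) were examined in mouse livers 24 hours after CCl4 injection. The genes were chosen by symbol: Mmp, Adam or Adamts followed by a number, and *Timp1* to *Timp4*. *Mmp8*, *Mmp9* and *Mmp12* were left out by the same rule. This gave 76 of the 24346 genes in the table, of which 20 are MMP, 33 ADAM, 19 ADAMTS and 4 TIMP genes. The rule reads names and uses no measured value.

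RNA from whole livers of 6 male C57/BL6 mice was sequenced, with 1 library per mouse. The mice were 8 weeks old, and each received 0.6 μl CCl4 per g body weight in sunflower oil by a single intraperitoneal injection. CCl4 is a toxin that hepatocytes turn into a reactive radical, which kills cells around the central vein. The 3 control mice carry the label wt and are given as med23f/f in the series design, that is, with floxed *Med23* alleles and no deletion. The other 3 mice carry the label med23 ko and are given as med23Δli in the design, the name used here for them. In these mice Albumin-cre, which is active in hepatocytes, deletes the floxed part of *Med23*, a subunit of the Mediator complex that links transcription factors to RNA polymerase. Deletion was not measured here by cell type. Livers without CCl4 were not analysed here, so each level below is that of an injured liver. *Med23* itself had 3.42, 2.97 and 4.14 FPKM in the controls and 3.40, 3.40 and 2.91 FPKM in the livers labelled med23Δli (exact two-sided permutation test, p = 0.4). These values take in all exons and all liver cells. They overlapped between the groups, so each direction rests on the labels.

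MMPs are zinc-dependent proteases that cut collagens, laminins and other matrix proteins, and a membrane-anchored subset also activates secreted MMPs at the cell surface. TIMPs occupy the active site of these enzymes, and *Timp3*, which stays bound to the matrix, also blocks ADAM and ADAMTS proteases. Many ADAM proteins shed growth factors, cytokines and receptors from cell surfaces, whereas the secreted ADAMTS enzymes trim procollagens, proteoglycans and von Willebrand factor. In the injured liver, stellate cells, macrophages and endothelial cells are known sources of many of these enzymes, and their balance with TIMPs governs how much scar is laid down or removed.

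In the livers labelled med23Δli, 6 of these genes were lower than in the controls and 0 were higher. The 6 were *Mmp14*, *Mmp19*, *Mmp7*, *Timp3*, *Adam23* and *Adam4*, so that each family other than ADAMTS held at least 1 of them. Values were FPKM, fragments scaled for transcript length and library size, and were compared as log2(FPKM + 0.1) with limma. A gene rose or fell when its adjusted p was under 0.05 (Benjamini-Hochberg over all 11956 genes tested, those with a mean of at least 0.5 FPKM). Only 27 of the 76 genes passed this filter on low values, and 49 did not. The 6 that fell were 22.2% of those tested, and 9.48% of all tested genes fell. No tested member rose, also at an unadjusted p under 0.05, whereas 11.6% of all tested genes rose. By more than 2-fold, 3 members fell (*Mmp7*, *Mmp14* and *Adam4*) and 0 rose, which for all genes was 3.45% and 4.45%. *Mmp7*, *Adam4* and *Adam1a* passed the filter only through the controls, with means under 0.5 FPKM in the livers labelled med23Δli, so a lower value was built into their selection and these counts are no support for a fall of the family. The 3 values of the livers labelled med23Δli lay below all 3 control values in 10 tested members (37.0%, against 20.4% of all tested genes), and above them in 0 (23.3%). The median log2 fold change of the tested members was −0.20, and that of all tested genes was 0.02. *Mmp7*, *Adam4* and *Adam1a* are among these 10 members and in this median, so the same limit holds for both. With 1 library left out, the number that fell was 3 without control replicate 2, 2 without med23Δli replicate 1, 3 without med23Δli replicate 2 and 3 without med23Δli replicate 3. *Mmp14* and *Mmp7* were among those that fell in each case.

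**Figure D1:**
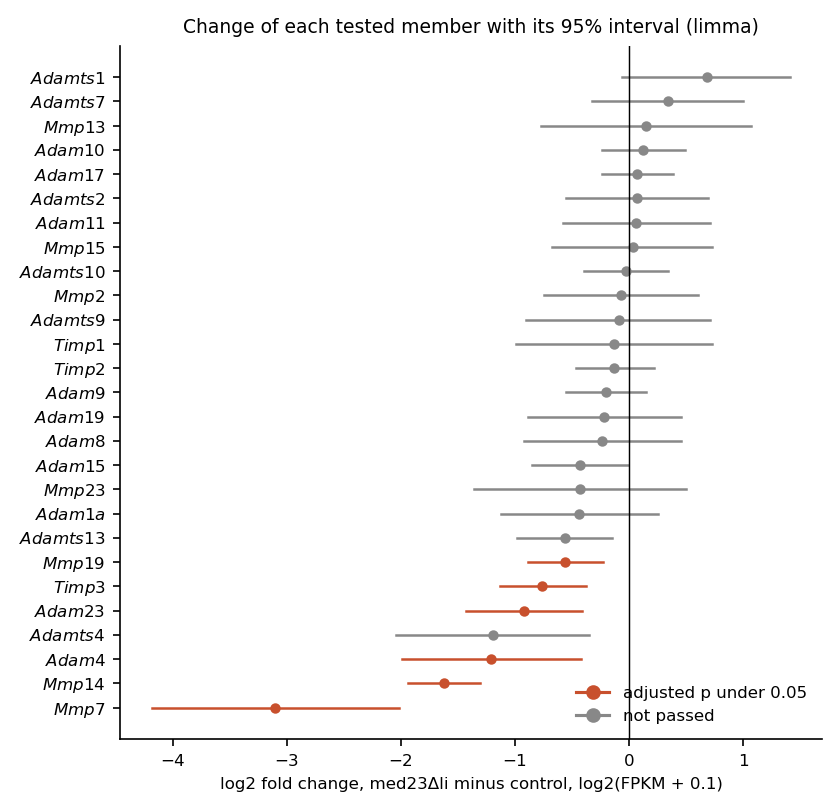
Log2 fold change of each tested gene (livers labelled med23Δli minus controls, on the log2(FPKM + 0.1) scale), with its 95% interval from limma; orange marks an adjusted p under 0.05. The 6 orange genes all lie left of 0, from −3.10 for *Mmp7* to −0.56 for *Mmp19*, and the rightmost gene, *Adamts1* at 0.68, has an interval that spans 0.

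Markers of the cells that could hold these transcripts were read in the same livers. All 5 endothelial markers fell (*Stab2*, *Clec4g*, *Lyve1*, *Pecam1* and *Kdr*, median log2 fold change −1.05), and their summed level was 73.6 to 110 FPKM in the controls and 38.5 to 41.4 FPKM in the livers labelled med23Δli. Of 6 stellate cell markers, 2 fell, where 9.48% of all tested genes did, and the log2 fold changes of *Reln* and *Rgs5* were 0.47 and 0.05. *Des* and *Colec11* fell (log2 fold changes −0.56 and −0.74, adjusted p = 0.0497 and 0.00916, limma), and the sum was 26.8 to 32.4 against 20.6 to 25.1 FPKM. None of these 11 markers was at 0 in any library. With 1 library left out, *Stab2*, *Clec4g* and *Kdr* passed each time. *Lyve1* did not pass without control replicate 2 (0.0643) or med23Δli replicates 1 and 3 (0.0876 and 0.0971), *Pecam1* without med23Δli replicate 2 (0.0515) and *Colec11* without med23Δli replicate 1 (0.0511). *Des* passed only without control replicate 3, and its adjusted p was otherwise 0.102 to 0.149. Their part in the lower protease levels was not tested, and in whole liver fewer cells of a type cannot be told apart from less RNA per cell. None of the 5 hepatocyte, 5 Kupffer cell, 6 monocyte and macrophage, 4 myofibroblast or 4 cholangiocyte markers passed the test, nor did the 3 neutrophil and 2 mesothelial markers tested. The median log2 fold change was −0.50 for the hepatocyte markers, beside −0.54 for the stellate cell markers, and −0.31, −0.14, −0.30 and 0.03 for the Kupffer cell, monocyte and macrophage, myofibroblast and cholangiocyte markers. Of the erythroid markers *Hba-a1* was called higher, which is uncertain because *Hba-a2* is almost the same sequence and because the call held in 1 of the 6 fits that left out a library. T and B cell and exocrine pancreas markers were all under the filter. Fat markers summed to 0.22 to 0.54 FPKM in 5 libraries and to 13.1 FPKM in med23Δli replicate 2, with *Adipoq* at 5.65 FPKM there.

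By level, the members fell into a few abundant genes and many scarce ones, as the plot of FPKM by gene shows. FPKM is divided by transcript length, so levels of different genes can be compared. *Mmp14* had the highest mean in the controls (42.3 ± 5.14 FPKM, SD, n = 3), above *Adam9* (30.2 ± 5.01), *Mmp19* (21.0 ± 2.98), *Adamts1* (15.6 ± 7.24) and *Timp1* (11.4 ± 2.32). The control values of *Mmp14*, *Adam9* and *Mmp19* did not overlap with each other, while those of *Adamts1* overlapped with *Mmp19* and *Timp1*. In the livers labelled med23Δli, *Adam9* (26.1 ± 1.77 FPKM) and *Adamts1* (23.7 ± 5.59) came first with overlapping values. *Mmp19* (14.1 ± 0.523 FPKM) and *Mmp14* (13.6 ± 0.635) followed, also with overlapping values. The summed level of the 20 MMP genes was 73.6, 75.3 and 71.2 FPKM in the controls and 36.8, 35.1 and 37.4 FPKM in the livers labelled med23Δli. *Mmp14* and *Mmp19* carried this difference, with 61.1, 67.6 and 61.3 against 27.2, 27.7 and 28.2 FPKM together, while the other 18 MMP genes summed to 12.5, 7.76 and 9.93 against 9.59, 7.33 and 9.18 FPKM, which overlap. The sums of the ADAM, ADAMTS and TIMP families overlapped between the groups. For TIMP (20.6, 24.2 and 19.6 against 14.9, 27.7 and 13.9 FPKM) the overlap came from med23Δli replicate 2, the library with fat markers. The other livers of that group lay below the controls. The ADAM sums were 65.5, 53.7 and 59.3 against 51.0, 56.0 and 52.5 FPKM. Only control replicate 2 and med23Δli replicate 2 crossed there, and the groups part if either of them is left out. For ADAMTS (24.7, 21.2 and 36.9 against 29.2, 39.5 and 29.4 FPKM) it came from control replicate 3, and the other two controls lay below the livers labelled med23Δli.

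**Figure D2:**
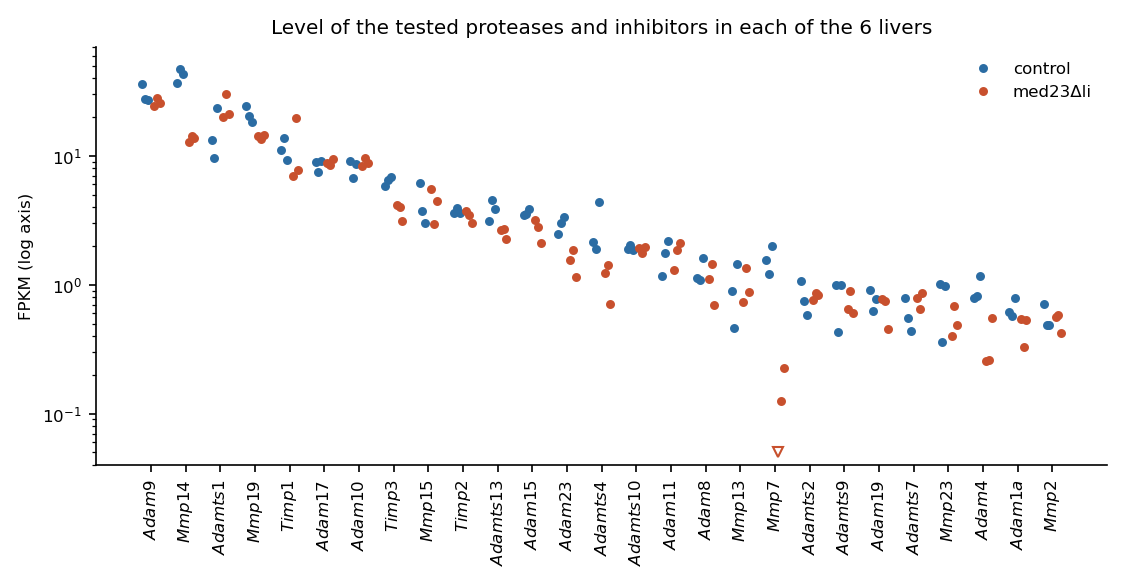
FPKM (log axis) of the 27 tested genes in each of the 6 livers, ordered by mean level; blue points are controls, orange points are livers labelled med23Δli, and the open triangle is a value listed at 0. *Mmp14* lies between 36.9 and 47.1 FPKM in the controls and between 12.9 and 14.2 FPKM in the livers labelled med23Δli.

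**Figure D3:**
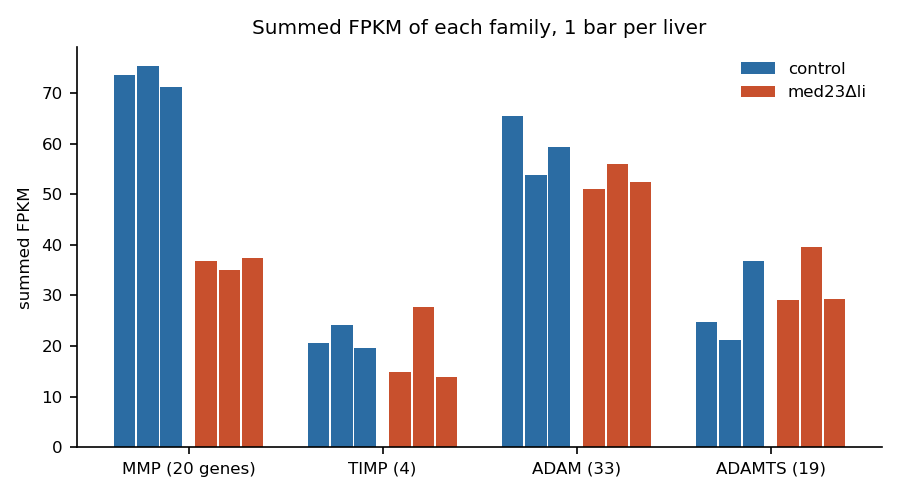
Summed FPKM of all genes of each family, with 1 bar per liver (blue, controls; orange, livers labelled med23Δli). The MMP bars are 71.2 to 75.3 FPKM against 35.1 to 37.4 FPKM, a gap carried by *Mmp14* and *Mmp19*. In the other 3 families the bars of the groups overlap in height. The overlap comes from the second orange bar (med23Δli replicate 2) for TIMP and the third blue bar (control replicate 3) for ADAMTS. For ADAM only the second blue and second orange bars (replicate 2 of each group) cross.

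Of the 6 membrane-type MMPs, 2 were tested and 1 fell (9.48% of all tested genes did), which was the most abundant member in the controls. *Mmp14* (ENSMUSG00000000957.11, chr14:54431612-54445364 of mm10, plus strand) encodes a membrane-anchored collagenase that also activates pro-MMP-2. It had 36.9, 47.1 and 43.0 FPKM in the controls and 12.9, 14.2 and 13.7 FPKM in the livers labelled med23Δli. The lowest control value was above the highest of the other group, and the spread within each group was small beside the gap. The mean was 3.11 times higher in the controls, with a log2 fold change of −1.62 (SE 0.14, adjusted p = 0.00108, limma). It passed the test in all 15 alternative settings, with log2 fold changes from −1.72 to −1.54, and no exon of another gene overlaps it. *Mmp15*, a related membrane-type enzyme, had 6.11, 3.74 and 2.99 FPKM in the controls and 5.49, 2.97 and 4.44 FPKM in the livers labelled med23Δli. These values overlapped throughout (log2 fold change 0.03, 95% interval −0.68 to 0.73), and the sign turned with the scaling, to −0.02 under quantile normalization. *Mmp16*, *Mmp17*, *Mmp24* and *Mmp25* were under the filter.

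*Mmp19*, which cuts basement membrane proteins such as nidogen and type IV collagen, fell less. It (ENSMUSG00000025355.7, chr10:128790910-128800824, plus strand) had 24.2, 20.5 and 18.3 FPKM in the controls and 14.2, 13.5 and 14.6 FPKM in the livers labelled med23Δli. All 3 control values were higher, by 1.49 times in the mean (log2 fold change −0.56, SE 0.14, adjusted p = 0.0298, limma). The adjusted p was 0.0607 without control replicate 1, 0.0516 without control replicate 2, and 0.106, 0.110 and 0.0807 without med23Δli replicates 1, 2 and 3. Its exons share 789 bases with *Tmem198b* on the opposite strand, which had a log2 fold change of −0.75 (0.0402 as adjusted p from limma, but 0.0656 to 0.122 with any library other than control replicate 3 left out), and the library kit does not mark strand, so reads from the shared stretch cannot be told apart. *Mmp23*, the other member of this group that was tested, had a log2 fold change of −0.43 with overlapping groups.

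At the pseudocount of 0.1, *Mmp7*, matrilysin, had the largest log2 fold change of the tested members. This small secreted enzyme lacks the hemopexin domain of other MMPs and is known as a product of epithelia, including bile ducts. *Mmp7* (ENSMUSG00000018623.9, chr9:7692090-7699585, plus strand) had 1.56, 1.22 and 2.01 FPKM in the controls and 0, 0.126 and 0.226 FPKM in the livers labelled med23Δli. It was thus measured in each control liver and was at or close to 0 in each of the others. Its log2 fold change was −3.10 (SE 0.47, adjusted p = 0.00629, limma). At such low levels the size hangs on the pseudocount, with −1.21 for a pseudocount of 1 and −4.52 for 0.01. With a pseudocount of 1, *Mmp14* had the larger change (−1.56). *Mmp7* passed the test in all 14 settings that kept it. It passed the filter only through the controls, so a lower value was built into its selection. Without the filter its adjusted p was 0.0156 (limma). The summed level of the bile duct markers *Krt19*, *Krt7*, *Epcam* and *Sox9* was 11.1 to 16.1 FPKM in the controls and 14.5 to 16.1 FPKM in the livers labelled med23Δli.

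**Figure D4:**
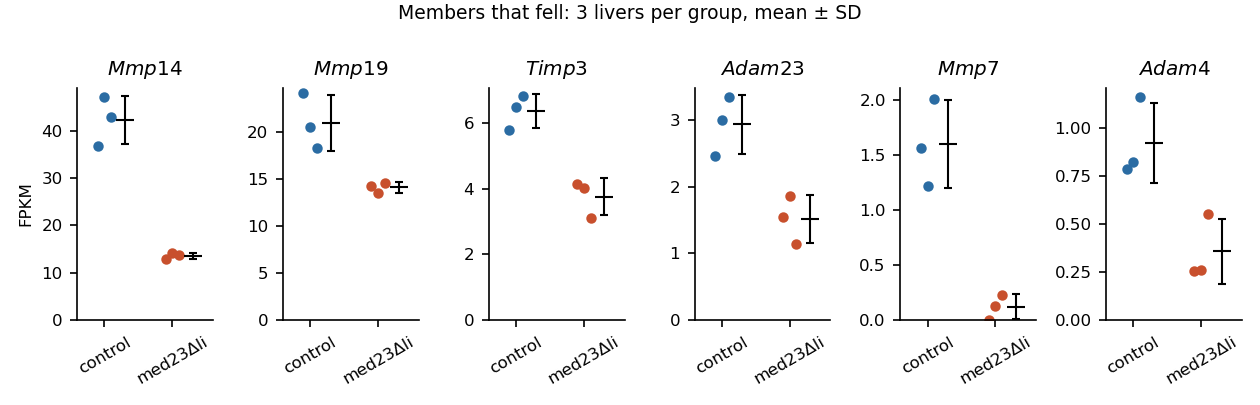
FPKM of the 6 genes that fell, with 1 point per liver and the mean ± SD (3 livers per group) beside the points; each panel has its own axis from 0. In every panel all 3 livers labelled med23Δli lie below all 3 controls.

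The collagenase and gelatinase genes did not pass the test. *Mmp13*, the main interstitial collagenase of mice, had 0.890, 0.460 and 1.45 FPKM in the controls and 0.736, 1.34 and 0.879 FPKM in the livers labelled med23Δli. The groups overlapped fully, with a log2 fold change of 0.15 and a 95% interval of −0.77 to 1.07. *Mmp2*, the gelatinase that *Mmp14* protein activates, had 0.710, 0.484 and 0.487 FPKM against 0.566, 0.587 and 0.420 FPKM (log2 fold change −0.07, 95% interval −0.75 to 0.60). *Mmp1a* and *Mmp1b* were listed at 0 in every library.

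*Mmp7* and *Mmp13* belong to a cluster of 8 of these genes within 427 kb of chromosome 9 (chr9:7272514-7699585). In order along the chromosome they are *Mmp13*, *Mmp1b*, *Mmp3*, *Mmp1a*, *Mmp10*, *Mmp27*, *Mmp20* and *Mmp7*. Only *Mmp7* and *Mmp13* passed the filter, and *Mmp1a*, *Mmp1b* and *Mmp20* were listed at 0. *Mmp3*, stromelysin, had 0.528, 0.0306 and 0.329 FPKM in the controls and 0.633, 0.345 and 0.312 FPKM in the livers labelled med23Δli, with overlapping groups. *Mmp27* had 0.152, 0.135 and 0.243 FPKM against 0.252, 0.124 and 0.499 FPKM, also overlapping. *Mmp7* was thus lower in a cluster whose other transcribed members overlapped between the groups, except *Mmp10*, which lay at 0.0323 to 0.0848 FPKM in the controls and at 0.145 to 0.184 FPKM in the livers labelled med23Δli.

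**Figure D5:**
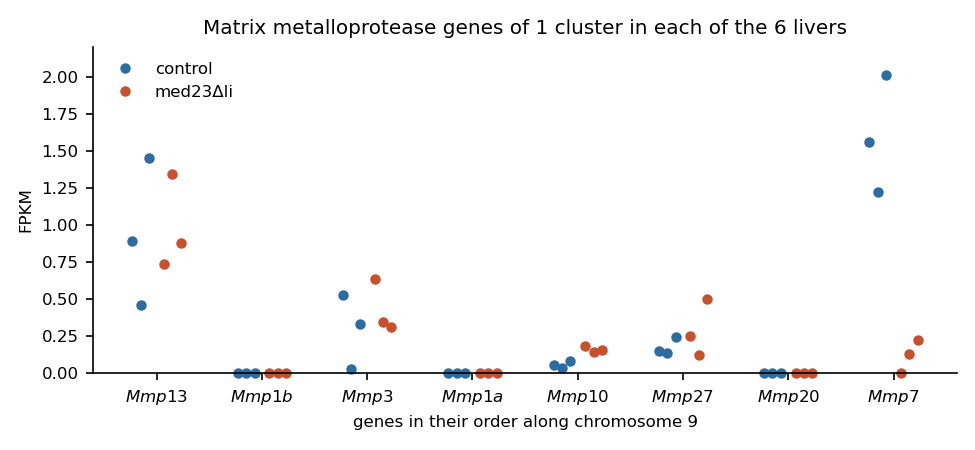
FPKM of the 8 clustered MMP genes in their order along chromosome 9, with 1 point per liver (blue, controls; orange, livers labelled med23Δli). *Mmp7* is at 1.22 to 2.01 FPKM in the controls and at 0.226 FPKM or lower in the other group, the points of *Mmp13* intermix, and *Mmp1a*, *Mmp1b* and *Mmp20* are at 0.

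The 120 bases before the RefSeq start of a gene were searched on both strands for 4 motifs. They were TGANTCA as the element of the AP-1 (Fos and Jun) factors, TATAAA as the box of core promoters, GGGCGG as the GC box and TAGGTCA as the core of the element that ROR receptors bind. RefSeq (GRCm38.p6, the assembly of mm10) gave this window for 47 of the 76 genes. TGANTCA was found in 7 of the 8 clustered genes, in 1 of the 39 other members (*Adam29*) and in 3.40% of all 27025 promoters. TATAAA was found in the same 7 clustered genes, in 3 of the 39 other members and in 6.76% of all promoters. GGGCGG was found in 0 of the 8 clustered genes, in 6 of the 8 other MMP genes and in 26.9% of all promoters. TAGGTCA was found in 1 of the 47 windows, that of *Mmp10*, and in 1.05% of all promoters. The windows below are shown because *Mmp7* fell while *Mmp13*, which also holds the AP-1 and TATAAA elements, did not pass the test. *Mmp3* and *Mmp10* hold both elements too, but were under the filter and not tested in the main fit. *Mmp27* is shown because it holds neither element. *Mmp14*, the most abundant gene that fell, is shown because it has 2 GC boxes in their place. Capitals mark the AP-1 element, the TATAAA box and the GC box, and each sequence runs 5′ to 3′ along the gene's own strand up to the base before its start.
*Mmp7*, chr9:7691970-7692089, plus strand: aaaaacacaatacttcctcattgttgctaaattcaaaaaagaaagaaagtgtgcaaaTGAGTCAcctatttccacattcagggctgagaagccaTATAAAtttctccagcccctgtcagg
*Mmp13*, chr9:7272394-7272513, plus strand: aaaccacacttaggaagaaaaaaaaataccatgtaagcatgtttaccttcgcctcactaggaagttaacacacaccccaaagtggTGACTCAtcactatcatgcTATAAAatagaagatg
*Mmp3*, chr9:7445702-7445821, plus strand: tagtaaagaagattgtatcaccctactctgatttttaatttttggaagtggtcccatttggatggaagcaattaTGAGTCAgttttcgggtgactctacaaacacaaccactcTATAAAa
*Mmp10*, chr9:7502222-7502341, plus strand: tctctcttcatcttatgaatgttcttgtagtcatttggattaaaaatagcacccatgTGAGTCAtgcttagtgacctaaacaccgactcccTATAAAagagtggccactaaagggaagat
*Mmp27*, chr9:7571276-7571395, plus strand: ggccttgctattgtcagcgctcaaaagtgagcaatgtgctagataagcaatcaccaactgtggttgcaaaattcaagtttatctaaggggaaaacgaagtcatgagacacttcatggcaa
*Mmp14*, chr14:54431478-54431597, plus strand: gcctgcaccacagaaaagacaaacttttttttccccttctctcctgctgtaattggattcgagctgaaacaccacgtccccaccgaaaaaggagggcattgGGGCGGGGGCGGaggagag
In *Mmp7* the AP-1 element began 63 bases before the start and the TATAAA box 26 bases before it, and in *Mmp10* they began 63 and 29 bases before it. Both lay closer to the start in *Mmp13* (35 and 16 bases) and in *Mmp3* (46 and 7 bases). These matches describe letters in a window and no binding was measured.

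Among the inhibitors, *Timp3* fell and *Timp1* and *Timp2* did not pass the test. *Timp3* (ENSMUSG00000020044.13, chr10:86300372-86349506, plus strand) had 5.79, 6.48 and 6.83 FPKM in the controls and 4.13, 4.02 and 3.11 FPKM in the livers labelled med23Δli. The groups did not overlap, and the mean was 1.70 times higher in the controls (log2 fold change −0.76, SE 0.16, adjusted p = 0.0175, limma). The adjusted p was 0.0549, 0.0544 and 0.0636 without med23Δli replicates 1, 2 and 3. The gene lies inside *Syn3* on the opposite strand and shares 1733 exon bases with it, but *Syn3* was at 0.183 to 0.433 FPKM in all libraries. *Timp2*, an inhibitor that also bridges *Mmp14* and pro-MMP-2 proteins, had 3.59, 3.92 and 3.60 FPKM in the controls and 3.73, 3.46 and 3.00 FPKM in the livers labelled med23Δli (log2 fold change −0.13, 95% interval −0.47 to 0.22).

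*Timp1*, the inhibitor known to be induced in injured and scarring liver, was the most abundant TIMP gene. It had 11.2, 13.8 and 9.21 FPKM in the controls and 7.0, 19.8 and 7.82 FPKM in the livers labelled med23Δli. The last group held both the lowest and the highest liver, and the highest was med23Δli replicate 2, the library with fat markers. The log2 fold change was −0.13 (95% interval −0.99 to 0.73), and −0.60 (adjusted p = 0.121, limma) without that library. *Timp4*, which fat and heart express, had 0.0785, 0 and 0 FPKM in the controls, and 0.0358, 0.390 and 0 FPKM in the other group, again highest in replicate 2. The part of the fat markers in these values was not tested.

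Of the 33 ADAM genes, 10 were tested and 2 fell (9.48% of all tested genes did), neither of them among the 6 tested sheddases, and *Adam4* passed the filter only through the controls. *Adam23*, a neuronal surface protein without the catalytic zinc site that binds integrins, had 2.47, 3.00 and 3.35 FPKM in the controls and 1.55, 1.86 and 1.14 FPKM in the livers labelled med23Δli. The lowest control stood above the highest liver of the other group (log2 fold change −0.92, SE 0.22, adjusted p = 0.0254, limma). *Adam23* (ENSMUSG00000025964.15) lies at chr1:63445891-63596276, plus strand, and its adjusted p was 0.0575 without control replicate 2, 0.0814 without med23Δli replicate 1 and 0.0807 without med23Δli replicate 3. *Adam4* (ENSMUSG00000072972.3, chr12:81419443-81421946, minus strand), which belongs to a group known chiefly from testis, had 0.783, 0.820 and 1.16 FPKM in the controls and 0.256, 0.260 and 0.551 FPKM in the livers labelled med23Δli. Here too the groups did not overlap, at levels near the filter (log2 fold change −1.21, SE 0.34, adjusted p = 0.0423, limma). With a library left out, the call of *Adam4* stayed only without med23Δli replicate 3, and elsewhere its adjusted p was 0.0674, 0.0751 and 0.0810 without control replicates 1, 2 and 3, and 0.132 and 0.121 without med23Δli replicates 1 and 2.

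None of the tested sheddases passed the test. *Adam17*, which releases TNF and ligands of the EGF receptor, had 8.98, 7.53 and 9.08 FPKM in the controls and 8.79, 8.52 and 9.47 FPKM in the livers labelled med23Δli (log2 fold change 0.07, 95% interval −0.24 to 0.38). *Adam10*, which cuts Notch receptors and cadherins, had 9.20, 6.72 and 8.64 FPKM against 8.30, 9.59 and 8.73 FPKM (log2 fold change 0.12, 95% interval −0.24 to 0.49). In both genes the livers of the groups intermixed. *Adam17* shares 311 exon bases with *Iah1* on the opposite strand (40.7 to 65.4 FPKM in the controls and 68.1 to 75.7 FPKM in the livers labelled med23Δli), so reads of that stretch cannot be assigned to either gene. *Adam9* had 36.0, 27.4 and 27.2 FPKM against 24.5, 28.0 and 25.8 FPKM (log2 fold change −0.20, 95% interval −0.55 to 0.15). *Adam15* was lower in each liver labelled med23Δli, at 3.17, 2.83 and 2.12 FPKM against 3.46, 3.55 and 3.88 FPKM, but did not pass the test (log2 fold change −0.43, adjusted p = 0.128, limma). Of the 23 ADAM genes under the filter, 13 were listed at 0 in every library, all of the group known from the reproductive tract.

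None of the 7 tested ADAMTS genes passed the test. *Adamts1*, which cuts the proteoglycans versican and aggrecan, was the most abundant, with 13.4, 9.68 and 23.7 FPKM in the controls and 19.9, 30.1 and 21.1 FPKM in the livers labelled med23Δli. It had the highest log2 fold change of the tested members, 0.68 (95% interval −0.06 to 1.41, adjusted p = 0.158, limma), and control replicate 3 lay among the livers of the other group. Without that library the log2 fold change was 1.03 (adjusted p = 0.0196, limma), but it was 0.39 (0.377) without control replicate 2 and 0.49 (0.390) without med23Δli replicate 2. *Adamts13*, which cuts von Willebrand factor and is made in liver by stellate cells, had 3.12, 4.57 and 3.84 FPKM in the controls and 2.64, 2.71 and 2.28 FPKM in the livers labelled med23Δli. All 3 controls were higher (log2 fold change −0.56, adjusted p = 0.0599, limma), and the adjusted p was 0.0448 without control replicate 1 and 0.0878 to 0.176 without any other library. *Adamts4*, named after its values were seen, had 2.13, 1.88 and 4.40 FPKM against 1.23, 1.43 and 0.709 FPKM (log2 fold change −1.19, adjusted p = 0.0528, limma). Its adjusted p was 0.044 after median centring.

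Of the 49 genes under the filter, 17 were listed at 0 in every library (13 ADAM, 3 MMP and 1 ADAMTS genes), and the highest mean was 0.497 FPKM (*Adamts14*). Of the 32 that were above 0 in some library, *Mmp24* and *Adamts15* had lower values without overlap in the livers labelled med23Δli (2 of 32, against 7.26% of all 5796 such genes), and *Mmp28*, *Mmp10* and *Adamts6* had higher values (3 of 32, against 6.95%). Without the filter, a fit of 17752 genes held the 27 members tested before and these 32. In that fit 5 members fell (4.83% of all genes did) and 1 rose (5.9% of all genes did). *Mmp24* and *Mmp10*, which the filter had left out, were among these, whereas *Adam23* and *Adam4* did not pass (adjusted p = 0.0541 and 0.0582, limma).

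Proteins that activate, carry or restrain these enzymes, and the matrix they cut, were counted by the same test, in which 11.6% of all tested genes rose and 9.48% fell. Of 7 genes of the plasminogen system, whose product plasmin activates pro-MMPs, 1 rose and 0 fell. The gene that rose was *Serpine2*, an inhibitor of plasminogen activators and thrombin, with 5.96, 1.87 and 2.23 FPKM in the controls and 22.6, 9.73 and 22.1 FPKM in the livers labelled med23Δli (log2 fold change 2.49, adjusted p = 0.0120, limma). Its adjusted p was 0.0506 and 0.0582 without med23Δli replicates 1 and 3. Of 4 tested inhibitors outside the TIMP family, *Mug1*, a broad protease inhibitor of plasma, rose (log2 fold change 0.70, adjusted p = 0.0167, limma), though the counting could have divided reads with its close copy *Mug2*. The call of *Mug1* was lost without med23Δli replicates 1 and 2 (0.0638 and 0.0727).

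Of 12 tested partners that mature or carry ADAM and membrane-type MMP proteins, 1 rose and 2 fell, numbers close to the shares of all genes. *Rhbdf1* and *Frmd8*, whose products act with *Adam17* protein, fell (log2 fold changes −0.64 and −0.70, adjusted p = 0.0268 and 0.0198, limma), and *Rhbdf2*, a paralogue of *Rhbdf1*, rose (0.46, adjusted p = 0.0424). None of the 3 calls was firm. *Rhbdf1* did not pass without control replicate 2 (0.0527) or med23Δli replicates 1, 2 and 3 (0.0847, 0.0570 and 0.0853), and *Frmd8* without control replicate 1 (0.0525) or med23Δli replicates 1, 2 and 3 (0.0613, 0.0819 and 0.0750). *Rhbdf2* passed only when control replicate 2 was the library left out (otherwise 0.0567 to 0.158), and its adjusted p was 0.0549 after median centring. *Adamtsl4*, 1 of 2 tested ADAMTS-like genes, fell (−0.76, adjusted p = 0.0288), but passed only when control replicate 3 was left out (otherwise 0.0521 to 0.0900). *Pcolce*, an enhancer of procollagen processing and 1 of 3 tested genes of the astacin group, fell too (−0.65, adjusted p = 0.0212), and lost the call without control replicate 1 (0.0567) and without med23Δli replicates 1, 2 and 3 (0.102, 0.0710 and 0.0609).

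Of 15 tested matrix substrates, 4 fell and 0 rose, where 9.48% of all tested genes fell and 11.6% rose. *Nid1*, nidogen, which links laminin to type IV collagen in basement membranes, had 23.2, 16.5 and 18.3 FPKM in the controls and 4.84, 6.89 and 5.02 FPKM in the livers labelled med23Δli (log2 fold change −1.78, adjusted p = 0.00220, limma). *Col4a1* and *Col4a2*, the chains of type IV collagen, fell by 0.90 and 1.05 on the log2 scale (adjusted p = 0.0128 and 0.00513, limma), *Col4a1* with 0.0532 without med23Δli replicate 1. *Nid1* and *Col4a2* passed with each library left out. *Vwf*, von Willebrand factor of endothelial cells, fell by 1.03 on the log2 scale (adjusted p = 0.0279, limma), and its adjusted p was 0.0571 without control replicate 2 and 0.0858, 0.0838 and 0.0744 without med23Δli replicates 1, 2 and 3. The fibrillar collagens *Col1a1*, *Col1a2* and *Col3a1* did not pass the test, with log2 fold changes of −0.25, −0.50 and −0.15. The endothelial markers given above were lower in the same livers, and their part in these values was not tested.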

How the data were processed

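Libraries were made from total RNA with an Illumina kit that does not mark strand. Per the labels and the study's methods, the authors checked reads with FastQC, removed adapters, used TopHat for alignment to mm10 and obtained FPKM from Cuffdiff. Versions, annotation and Cuffdiff options are not given in the sources used here. The deposited FPKM are listed for each library and as group means, beside Cuffdiff's log2 fold changes, p-values and q-values. The group means and the columns of the authors' own test were not used. FPKM carry no read counts. Whole reads could not be recovered from low values, so depth is unknown, intervals of counting error cannot be given, and the spread between 3 mice is the only error. Each library listed from 7628 to 9341 genes at 0, and the 10 most abundant genes held 17.1% to 20.3% of summed FPKM in the controls and 11.9% to 13.7% in the livers labelled med23Δli.

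Values were compared as log2(FPKM + 0.1) with limma 3.58.1 in R 4.3.3 (lmFit, eBayes with a trend) for the genes that averaged 0.5 FPKM or more, without a replicate block, since the study describes none, and the fit was tested on simulated data. Changes of scarce genes come out too small on this scale. The smallest p of an exact permutation test of 3 against 3 is 0.1. The members, the gene lists and the alternatives were chosen with earlier results of these data known. Genes named are those that passed the test, *Timp1* to *Timp4*, *Mmp2*, *Mmp13*, *Mmp14*, *Adam10*, *Adam17*, *Adamts1*, *Adamts13* and the 12 members with the highest mean, and others are named as list members, as genes of the cluster or as chosen after their values were seen. Positions and overlaps come from GENCODE and promoter windows from RefSeq, both on the assembly of mm10. ADAM proteins were grouped by textbook knowledge, since their sequences were not used here. Python 3.11.15, pandas 2.3.3 and matplotlib 3.10.9 were used for counts and figures.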

Additional observations from a re-analysis of the deposited data

How the results depend on the processing

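*Mmp14* and *Mmp7* passed the test in every setting that kept them, and *Adam23*, *Adam4*, *Timp3* and *Mmp19* in 10 of 15, 7 of 14, 11 of 15 and 9 of 15. *Mmp7* and *Adam4* passed the main filter only through the controls, which builds a lower value into their selection. The settings varied the pseudocount (1 or 0.01), the filter (none, or a mean of 1 FPKM), the scaling (median centring or quantile normalization), eBayes (robust, or without a trend), the replicate block and the libraries, each left out in turn. The number of members that fell was 2 with the replicate block, 7 with median centring or robust eBayes, and ranged from 2 to 5 with 1 library left out. No pairing by replicate number was seen (correlations of the deviations of same-numbered mice −0.0222, −0.0459 and −0.124), but 3 mice per group cannot exclude it. The members that rose were 1 without a filter and 0 to 1 with 1 library left out, the 1 being *Adamts1* without control replicate 3, which then also passed 2-fold, so that 0 to 1 passed 2-fold upwards. Past 2-fold downwards were 1 with a filter at a mean of 1 FPKM, since *Mmp7* and *Adam4* lie below it, 4 with median centring or robust eBayes, and 2 to 3 with 1 library left out.

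Signs turned for genes near 0, and the cause was not tested. With 1 library left out, the log2 fold change ranged from −0.01 to 0.21 for *Adam10*, −0.02 to 0.12 for *Adam17*, −0.23 to 0.50 for *Mmp13*, −0.19 to 0.31 for *Mmp15*, −0.15 to 0.08 for *Mmp2*, −0.60 to 0.15 for *Timp1* and −0.22 to 0.02 for *Med23*. *Mmp15* was at −0.00 after median centring and −0.02 under quantile normalization.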

Other observations

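The 5 members under the filter whose groups did not overlap were named after their values were seen. *Mmp24*, a membrane-type MMP known from neurons, had 0.776, 0.612 and 0.555 FPKM in the controls and 0.169, 0.169 and 0.225 FPKM in the livers labelled med23Δli. Without the filter its log2 fold change was −1.37 (adjusted p = 0.0178, limma), where 4.83% of 17752 genes fell. Its exons share 637 bases with *BC029722* on the opposite strand, which had 19.1, 42.1 and 35.0 FPKM in the controls and 14.1, 5.57 and 11.6 FPKM in the other group, and reads of the shared stretch cannot be told apart. *Adamts15*, a proteoglycan-cutting ADAMTS, was lower too (0.460 to 0.513 against 0.229 to 0.287 FPKM, adjusted p = 0.0661 without the filter).

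The other 3 were higher in the livers labelled med23Δli. *Mmp10*, a stromelysin of the cluster on chromosome 9, had 0.0542, 0.0323 and 0.0848 FPKM in the controls and 0.184, 0.145 and 0.153 FPKM in the livers labelled med23Δli (log2 fold change 0.74, adjusted p = 0.0495 without the filter, limma), where 5.9% of 17752 genes rose. *Mmp28*, epilysin, had 0.221, 0.218 and 0.231 FPKM against 0.452, 0.390 and 1.03 FPKM (adjusted p = 0.0951), and *1700020L24Rik*, which shares 466 exon bases with it on the opposite strand, was at 0 to 0.233 FPKM against 0.359 to 0.994 FPKM. *Adamts6* had 0.0391, 0 and 0.0165 FPKM against 0.176, 0.165 and 0.0539 FPKM (adjusted p = 0.0719). The levels of *Mmp10* and *Adamts6* lie near the pseudocount of 0.1, on which the size of their fold changes depends.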
